A study of Mus musculus with 6 samples.

Results

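The genes examined here code for the surface proteins used to sort granulocyte/macrophage progenitors (GMPs), the marrow precursors of granulocytes and monocytes, and for close relatives of those proteins. They are Kit, Cd34, Ly6a, Il7r, Fcgr1, Fcgr2b, Fcgr3, Fcgr4 and Fcer1g. They were chosen by name for their part in the sort, with earlier results of these data known. Of these 9 genes, 8 had a probe set under their symbol, 15 probe sets among 45037 on the array, and 13 of the 15, covering 8 genes, passed the filter on low values. Ly6a, the gene of Sca1, was not analysed here.

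RNA was measured on 6 Affymetrix arrays, 2 per genotype, and the labels give each array 1 sex and 1 age. Whether a sample came from 1 mouse or a pool is not stated, and p-values measure the spread between these samples. Wild-type (WT) samples came from a male of 12 weeks (replicate 1) and a female of 19 weeks (replicate 2). Samples labelled IRF8KO, lacking the transcription factor IRF8, came from a female of 12 weeks (replicate 1) and a male of 22 weeks (replicate 2). Samples labelled IRF4/8DKO, lacking IRF8 and the related factor IRF4, came from a male (replicate 1) and a female (replicate 2) of 16 weeks. All were of strain BL6, and how the alleles were made is not stated here. Cells were sorted as lineage-negative, negative for IL-7R and Sca1, positive for Kit and CD34, and high for Fc gamma receptors (types II and III), so every genotype passed the same protein gate before its RNA was read.

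Kit is the receptor for stem cell factor, which keeps early blood progenitors alive and dividing. CD34 is a sialomucin of the surface of blood progenitors and vessel lining. Sca1 marks stem cells and the alpha chain of the IL-7 receptor marks lymphoid progenitors, so a GMP gate leaves both out. Fc gamma receptors bind the constant part of IgG. In the mouse the receptors I, III and IV activate cells through the Fc receptor gamma chain, a signalling subunit coded by Fcer1g and also used by the IgE receptor, whereas receptor IIb, coded by Fcgr2b, inhibits. GMPs are set apart from earlier myeloid progenitors by their higher level of receptors II and III.

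Values are deposited intensities on a linear scale. Differences are on the scale of log2(intensity + 10.5), which understates changes of low signals, and come from 1 limma fit of the 3 genotypes over 29783 probe sets, given with standard errors (SE). A probe set counted as changed at an adjusted p (Benjamini-Hochberg over all 29783) under 0.05. No array depth exists, so the number of arrays limits the precision. Array medians were 45.3 and 41.7 in WT, 38.6 and 38.4 in IRF8KO, and 37.5 and 34.1 in IRF4/8DKO. They were thus lower on all knockout arrays, and the cause was not tested. Irf8 itself gave 2588 and 3052 in WT against 2602 to 4778 in the knockouts by its stronger probe set, and 506.9 and 704.5 against 933.7 to 1900 by its weaker one, so neither was lower in the knockouts. The stronger Irf4 probe set was highest in the arrays labelled IRF4/8DKO (66.0 and 54.6, against 32.1 and 23.5 in WT and 13.8 and 7.66 in IRF8KO) although that label names its loss, and the weaker read 11.8 to 33.1 over all arrays. Their position against the deleted exons is unknown here, and they therefore do not check the genotype labels. The GMP list (6 of its 7 genes with a probe set, among them the myeloperoxidase gene Mpo and the neutrophil elastase gene Elane) passed the filter for all 6, with a summed intensity of 38883 to 47873 in WT, 45265 to 47939 in IRF8KO and 47335 to 54600 in IRF4/8DKO. In a list of 9 T and NK cell genes, the T cell receptor subunit genes Cd3e, Cd3d and Cd3g did not pass the filter, but 3 others did, among them Cd4 and Cd8a. The list summed to 827.9 and 1140 in WT and to 1292 to 2100 in the knockouts, so T or NK cell signal is not shown to be absent.

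No member probe set passed the limma test in any comparison, and the values below are therefore given with their errors and not as changes. In IRF8KO against WT 0 of 13 passed, against 0.0302% of all probe sets tested, and 5 of 13 had an unadjusted limma p under 0.05, against 13.5%. In IRF4/8DKO against WT 0 of 13 passed, against 0.299%, and 3 of 13 had an unadjusted limma p under 0.05, against 9.05%. In IRF4/8DKO against IRF8KO 0 of 13 passed, against 0% (at an unadjusted limma p under 0.05, 3 of 13 against 8.52%). With both knockout genotypes set together against WT, 4 arrays against 2, 0 of 13 passed, against 0.601%. In this last comparison 4 of 13 had an unadjusted limma p under 0.05, against 11.6% of all, and they were Cd34, Fcgr3, Fcer1g and Fcgr4. The same 4 were those whose knockout arrays did not overlap WT, 3 higher (against 8.51% of all probe sets) and 1 lower (against 12.5%). The counts that involve IRF8KO include the Fcgr1 probe set 1417876_at, which passed the filter through the IRF8KO arrays alone and so had to differ there. It is 1 of the 5 in IRF8KO against WT and 1 of the 3 in IRF4/8DKO against IRF8KO, and these counts are given as a description. The others of those 3 were 1435476_a_at and 1455332_x_at, both of Fcgr2b. Since Fcgr2b holds 4 of the 13 probe sets, the 13 are not independent. In both knockout genotypes together against WT the median log2 difference of the 13 was 0.28, beside -0.05 over all probe sets tested. Between single genotypes absence of overlap carried little, since 7 of 13 members did not overlap in IRF8KO against WT (45.7% of all probe sets), 8 of 13 in IRF4/8DKO against WT (43.6%) and 6 of 13 in IRF4/8DKO against IRF8KO (36.6%). The comparisons with WT share the WT arrays.

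**Figure D1:**
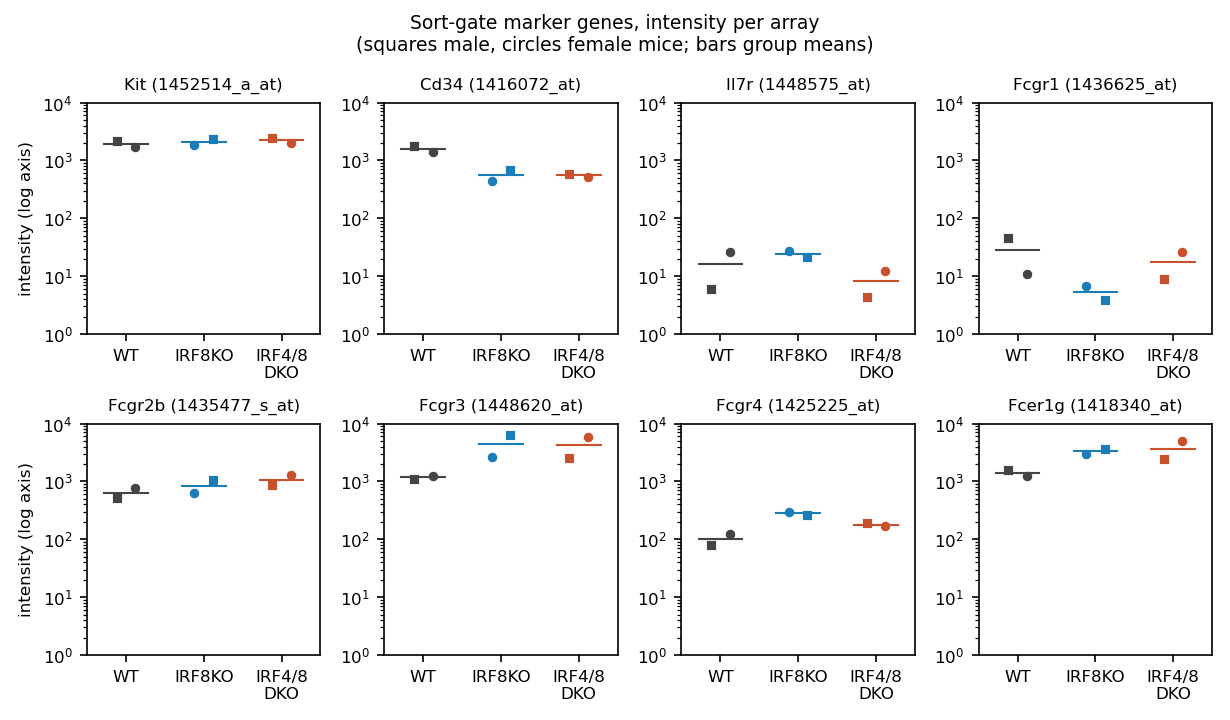
Intensity (log axis, the same in every panel) of each member's probe set with the highest mean, per array. Squares are male and circles female mice, and bars are group means. Cd34 is lower and Fcgr3, Fcgr4 and Fcer1g are higher on all 4 knockout arrays than on both WT arrays, while Kit overlaps throughout and Il7r and Fcgr1 stay below 46.

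Kit, the first positive marker of the gate, passed the test in no comparison. Its stronger probe set (1452514_a_at) read 2170 and 1680 in WT, 1824 and 2328 in IRF8KO, and 2426 and 1998 in IRF4/8DKO, so the 3 groups overlapped. The log2 difference was 0.11 ± 0.29 SE in IRF8KO (limma adjusted p = 0.904) and 0.20 ± 0.29 SE in IRF4/8DKO (limma adjusted p = 0.898). The 95% interval of the fold in IRF8KO ran from 0.683 to 1.71 and in IRF4/8DKO from 0.729 to 1.82, which bounds the difference but does not show equality. The weaker Kit probe set (1415900_a_at) read 272.6 and 277.5 in WT, 267.1 and 358.5 in IRF8KO, and 319.4 and 415.6 in IRF4/8DKO. Its IRF4/8DKO arrays lay above WT, at a log2 difference of 0.39 ± 0.42 SE (limma adjusted p = 0.854).

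Cd34, the other positive marker, was the member lying lowest in the knockouts. Its probe set (1416072_at) read 1747 and 1401 in WT, 440.3 and 668.6 in IRF8KO, and 590.3 and 508.7 in IRF4/8DKO. Both genotypes lay wholly below WT and overlapped each other. The signal was 2.85-fold lower in IRF8KO (log2 difference -1.51 ± 0.38 SE, limma adjusted p = 0.162) and 2.82-fold lower in IRF4/8DKO (-1.50 ± 0.38 SE, limma adjusted p = 0.213). For both genotypes together the difference was -1.50 ± 0.33 SE, with a 95% interval from -2.25 to -0.75 (limma adjusted p = 0.0998). IRF4/8DKO differed from IRF8KO by 0.01 ± 0.38 SE (95% interval -0.85 to 0.88). Between male arrays the difference from WT was -1.37 in IRF8KO and -1.55 in IRF4/8DKO, and between female arrays -1.65 and -1.44. Without IRF8KO replicate 2 Cd34 passed in the comparison of both genotypes with WT (-1.65, limma adjusted p = 0.0351), where 678 of all 29783 probe sets passed, against 179 with all arrays. Without WT replicate 1 or WT replicate 2 its limma adjusted p there was 0.986 and 0.52. These RNA values come from cells that had all been sorted as positive for the CD34 protein, and in bulk RNA fewer cells with a transcript and less transcript per cell cannot be told apart.

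The promoters of Cd34 and of the Fc receptor genes were read from RefSeq (GRCm38.p6) because these members lay furthest from WT or belong to the same receptor family. Each line gives the 250 bases before the first listed start, 5′ to 3′ on the gene's strand. Capitals mark matches to any of 4 motifs, searched on both strands from 250 bases before to 50 after the start. These were the Ets-IRF composite site (GGAA and GAAA separated by 2 bases of any kind, bound by Ets factors with IRF4 or IRF8), the core of the interferon response element (GAAA and GAAA separated by 2 such bases), TTCNNNGAA (a STAT site, which reads the same on both strands) and GAGGAAG (a core recognised by the Ets factor PU.1).
Cd34 (chr1:194938571-194938820, plus strand): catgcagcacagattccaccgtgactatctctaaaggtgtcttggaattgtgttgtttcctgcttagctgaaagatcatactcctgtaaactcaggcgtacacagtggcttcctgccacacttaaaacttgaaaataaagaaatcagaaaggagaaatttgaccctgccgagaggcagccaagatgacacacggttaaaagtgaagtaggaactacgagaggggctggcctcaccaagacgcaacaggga
Fcgr2b (chr1:170976072-170976321, minus strand): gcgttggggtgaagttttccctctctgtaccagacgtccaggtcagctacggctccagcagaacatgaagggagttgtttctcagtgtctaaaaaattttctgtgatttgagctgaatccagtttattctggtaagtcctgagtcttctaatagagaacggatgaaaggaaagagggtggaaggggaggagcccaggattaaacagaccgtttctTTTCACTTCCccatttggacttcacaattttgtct
Fcgr3 (chr1:171059404-171059653, minus strand): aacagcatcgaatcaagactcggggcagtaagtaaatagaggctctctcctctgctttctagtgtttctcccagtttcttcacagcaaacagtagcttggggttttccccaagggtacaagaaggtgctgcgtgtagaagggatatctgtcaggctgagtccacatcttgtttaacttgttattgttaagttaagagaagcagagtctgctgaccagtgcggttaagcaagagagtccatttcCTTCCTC
Fcgr4 (chr1:171018676-171018925, plus strand): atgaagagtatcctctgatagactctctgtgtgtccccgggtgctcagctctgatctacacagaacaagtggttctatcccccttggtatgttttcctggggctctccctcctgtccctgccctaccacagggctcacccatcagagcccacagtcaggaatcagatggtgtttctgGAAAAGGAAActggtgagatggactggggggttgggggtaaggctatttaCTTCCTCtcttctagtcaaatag
Fcgr1 (chr3:96293970-96294219, minus strand): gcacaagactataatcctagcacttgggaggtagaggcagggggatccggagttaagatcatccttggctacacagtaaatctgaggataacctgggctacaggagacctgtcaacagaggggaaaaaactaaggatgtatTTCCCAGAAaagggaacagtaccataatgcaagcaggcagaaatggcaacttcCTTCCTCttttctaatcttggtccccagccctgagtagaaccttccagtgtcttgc
Fcer1g (chr1:171234350-171234599, minus strand): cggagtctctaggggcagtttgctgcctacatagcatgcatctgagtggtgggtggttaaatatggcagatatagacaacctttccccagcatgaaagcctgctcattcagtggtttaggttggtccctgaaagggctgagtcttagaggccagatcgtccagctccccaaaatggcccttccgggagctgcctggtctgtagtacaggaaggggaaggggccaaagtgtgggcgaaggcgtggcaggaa

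All 8 members with a probe set had a promoter in the table, and 4 of them held GAGGAAG, against 13.6% of the 32851 promoters of that length. Member counts here are by gene, over 10 promoters of the 8 genes, whereas the shares are by promoter. The measures are thus unlike, and the Fc gamma receptor genes are related to each other, so no enrichment is read from them. In Fcgr3 the match began 7 bases before the start, in Fcgr4 23 and in Fcgr1 56 bases before it, all on the opposite strand (CTTCCTC), and Kit held 1 on its own strand. The Ets-IRF composite site was found in 1 member, Fcgr2b, as TTTCACTTCC beginning 35 bases before the start, against 2.72% of all promoters. The interferon response element core was found in 1 member, Fcgr4 (GAAAAGGAAA, 3.44% of all), and did not overlap its CTTCCTC. TTCNNNGAA was found in Fcgr1 (TTCCCAGAA) and Il7r (TTCAGGGAA), against 8.3% of all. The windows of Cd34 and Fcer1g held none of the 4. A match is a description of the sequence, and binding was not measured.

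Il7r, a marker the gate excludes, was low on every array. Its probe set 1448575_at read 6.04 and 26.1 in WT, 27.1 and 21.6 in IRF8KO, and 4.31 and 12.3 in IRF4/8DKO, and passed the filter through 2 arrays only. The other Il7r probe set (1448576_at) read 1.19 to 17.1 over the 6 arrays and was not tested. The differences from WT were 0.50 ± 0.47 SE in IRF8KO and -0.42 ± 0.47 SE in IRF4/8DKO (limma adjusted p = 0.685 and 0.863). Values of this size lie around the pseudocount of 10.5, so no fold is given.

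Fcgr3, which codes for the activating low-affinity receptor III read by the gate, had the highest difference among the members. It read 1090 and 1259 in WT, 2618 and 6315 in IRF8KO, and 2516 and 5863 in IRF4/8DKO. All 4 knockout arrays lay above both WT arrays, with replicate 2 of each knockout genotype more than 2-fold above replicate 1 (2.41-fold in IRF8KO and 2.33-fold in IRF4/8DKO, against 1.16-fold within WT). The signal was 3.45-fold higher in IRF8KO (log2 difference 1.79 ± 0.48 SE, limma adjusted p = 0.177) and 3.26-fold higher in IRF4/8DKO (1.70 ± 0.48 SE, limma adjusted p = 0.271). For both genotypes together it was 1.75 ± 0.42 SE (95% interval 0.80 to 2.69, limma adjusted p = 0.129). IRF4/8DKO differed from IRF8KO by -0.08 ± 0.48 SE, with a 95% interval from -1.17 to 1.01. Without IRF8KO replicate 1 Fcgr3 passed in IRF8KO against WT (2.42, limma adjusted p = 0.0221) and in both genotypes against WT (2.06, limma adjusted p = 0.0118). At that setting 1090 and 1020 of all 29783 probe sets passed in these comparisons, against 9 and 179 with all arrays. Without WT replicate 1 or WT replicate 2 no probe set of any gene passed limma's test in either (1494 to 2120 had an unadjusted p under 0.05), and Fcgr3 had a limma adjusted p of 0.678 and 0.622 in IRF8KO. Between male arrays the difference from WT was 2.52 in IRF8KO and 1.20 in IRF4/8DKO, and between female arrays 1.05 and 2.21.

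Fcgr2b, which codes for the inhibitory receptor IIb that the same gate reads, was measured by 5 probe sets that differed in direction. The strongest (1435477_s_at) read 512.1 and 770.3 in WT, 618.2 and 1040 in IRF8KO, and 853.9 and 1271 in IRF4/8DKO. Its log2 difference from WT was 0.35 ± 0.43 SE in IRF8KO and 0.72 ± 0.43 SE in IRF4/8DKO (limma adjusted p = 0.768 and 0.707). In IRF8KO the 4 kept probe sets disagreed in sign: 1451941_a_at gave 0.02 ± 0.53 SE, 1435476_a_at -0.52 ± 0.57 SE and 1455332_x_at -0.66 ± 0.46 SE (limma adjusted p = 0.991, 0.734 and 0.573). In IRF4/8DKO all 4 lay above WT, by 0.52 to 0.86, and none passed (limma adjusted p from 0.707 to 0.823). IRF4/8DKO lay above IRF8KO without overlap for 1435476_a_at (68.6 and 176.1 against 275.9 and 337.2) and for 1455332_x_at (185.7 and 263.7 against 440.2 and 608.2). Those differences were 1.38 ± 0.57 SE and 1.19 ± 0.46 SE (limma adjusted p = 0.569 and 0.565). The fifth probe set (1447622_at) read 1.95 to 4.84 and was not tested. Fcgr2b and Fcgr3 are similar in the part that codes for the outer domains, and on these arrays the endings _s_at and _x_at mark probe sets whose probes can match more than 1 transcript, so the share of each gene in those signals is uncertain.

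**Figure D2:**
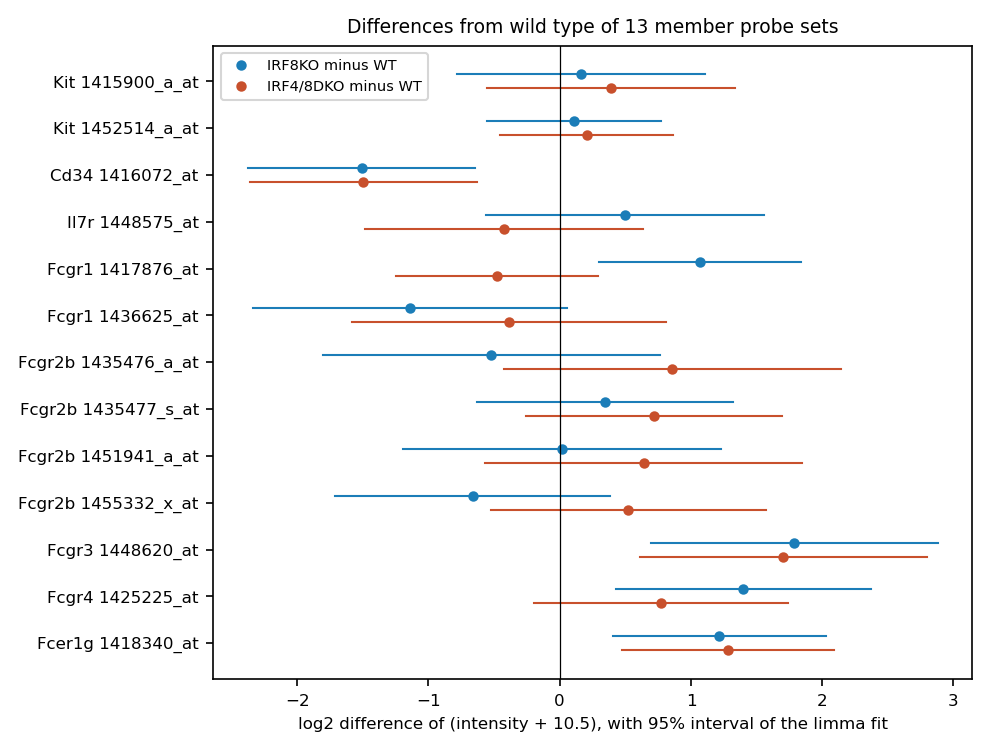
Log2 difference from WT (horizontal axis, on the scale of intensity + 10.5) of the 13 member probe sets tested, with 95% intervals of the limma fit, for IRF8KO (blue) and IRF4/8DKO (orange). Cd34 lies left of 0 and Fcgr3 and Fcer1g right of 0 in both genotypes with intervals that do not reach 0, before any adjustment over probe sets, and the 4 Fcgr2b probe sets fall on both sides of 0 in IRF8KO.

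The gate reads receptors II and III together, so the change of Fcgr3 relative to Fcgr2b was computed within each array, as the difference of their log2 values set to 0 at the mean of WT. Against 1435477_s_at it was 0.19 and -0.19 in WT, 1.18 and 1.70 in IRF8KO, and 0.66 and 1.31 in IRF4/8DKO. The 4 knockout arrays were higher than both WT arrays against this probe set, 1451941_a_at and 1455332_x_at, by a mean of 1.21, 1.42 and 1.82. An exact permutation test of 4 against 2 arrays, two-sided, gave p = 0.133 for each of these 3, the smallest this design allows. Against 1435476_a_at the mean was 1.58, but IRF4/8DKO replicate 1 (0.38) lay below WT replicate 1 (0.44), with exact permutation p = 0.267. All of these differences use the same Fcgr3 values, which already lay above WT on the 4 knockout arrays. They therefore largely repeat the Fcgr3 result and do not count as separate results.

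**Figure D3:**
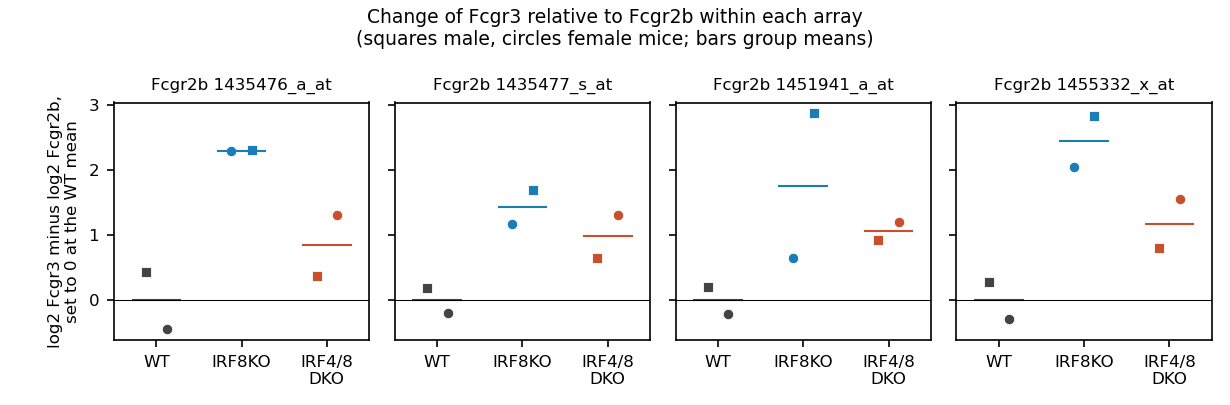
Log2 Fcgr3 minus log2 Fcgr2b within each array (vertical axis), set to 0 at the WT mean, with a panel for each of the 4 Fcgr2b probe sets tested. Squares are male and circles female mice, and bars are group means; all 4 knockout arrays lie above both WT arrays in 3 panels, and in the panel of 1435476_a_at IRF4/8DKO replicate 1 does not.

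Fcgr4, which codes for the activating receptor IV, read 80.1 and 123.4 in WT, 298.4 and 263.2 in IRF8KO, and 189.6 and 166.6 in IRF4/8DKO. The 3 genotypes did not overlap, with IRF8KO highest and WT lowest. The WT replicates differed by 1.54-fold, as much as IRF8KO from IRF4/8DKO (1.54-fold). The log2 difference from WT was 1.40 ± 0.43 SE in IRF8KO (2.64-fold, limma adjusted p = 0.218) and 0.77 ± 0.43 SE in IRF4/8DKO (1.71-fold, limma adjusted p = 0.673). IRF4/8DKO lay below IRF8KO by -0.63 ± 0.43 SE (limma adjusted p = 0.7), with a 95% interval from -1.60 to 0.34.

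Fcgr1, which codes for the high-affinity receptor I, was low on all arrays, and its 2 probe sets went opposite ways in IRF8KO. The first (1417876_at) read 5.79 and 7.73 in WT, 23.9 and 27.4 in IRF8KO, and 1.95 and 1.77 in IRF4/8DKO. It passed the filter only through the IRF8KO arrays, where it was highest, and so had to differ. The second (1436625_at) read 45.5 and 10.9 in WT, 6.75 and 3.83 in IRF8KO, and 8.80 and 25.9 in IRF4/8DKO. The first gave log2 differences of 1.07 ± 0.34 SE in IRF8KO and -0.48 ± 0.34 SE in IRF4/8DKO, and -1.55 ± 0.34 SE between the knockouts (limma adjusted p = 0.237, 0.768 and 0.482). With most values near or under the pseudocount of 10.5, these probe sets give no level of Fcgr1 that can be compared.

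Fcer1g, the shared gamma chain, was higher on every knockout array. It read 1581 and 1256 in WT, 2977 and 3637 in IRF8KO, and 2405 and 4914 in IRF4/8DKO, so neither knockout overlapped WT. The signal was 2.32-fold higher in IRF8KO (log2 difference 1.22 ± 0.36 SE, limma adjusted p = 0.207) and 2.43-fold higher in IRF4/8DKO (1.28 ± 0.36 SE, limma adjusted p = 0.265). For both genotypes together it was 1.25 ± 0.31 SE (95% interval 0.55 to 1.95, limma adjusted p = 0.14), and IRF4/8DKO differed from IRF8KO by 0.06 ± 0.36 SE.

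The other subunits of the IgE receptor lay on the opposite side of WT from their shared gamma chain. Ms4a2, the gene of the beta chain, read 1584 and 1415 in WT, 318.8 and 66.7 in IRF8KO, and 78.3 and 69.3 in IRF4/8DKO. It fell in IRF4/8DKO (log2 difference -4.16, limma adjusted p = 0.0447) and in both genotypes together (-3.70, limma adjusted p = 0.0329). Its other probe set (1421475_at) read 97.3 and 142.1 in WT and 19.1 to 23.5 in the knockouts, and also passed in both together (-2.02, limma adjusted p = 0.0441). Fcer1a, the gene of the IgE-binding alpha chain, read 211.4 and 209.8 in WT, 114.5 and 4.44 in IRF8KO, and 3.31 and 4.46 in IRF4/8DKO, and did not pass (limma adjusted p = 0.106 in both together).

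**Figure D4:**
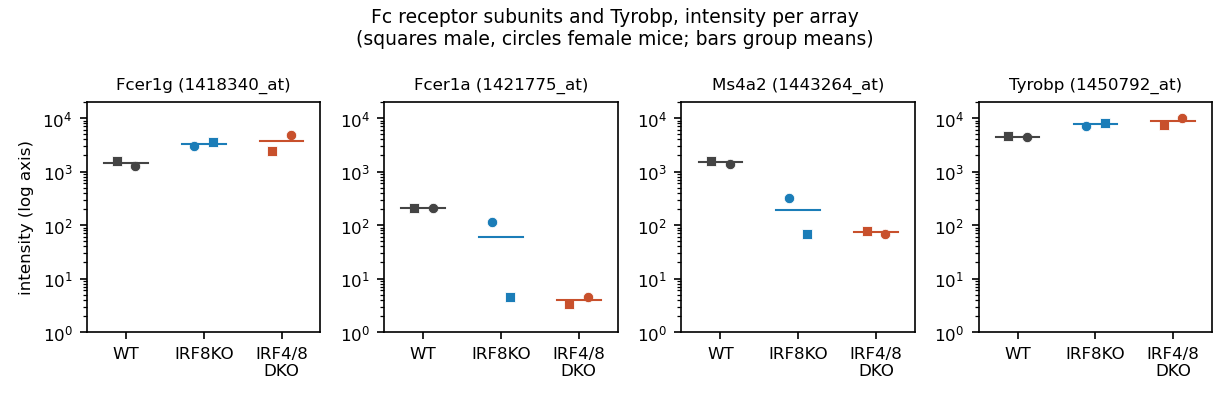
Intensity (log axis) per array of Fcer1g, the IgE receptor genes Fcer1a and Ms4a2, and the adaptor gene Tyrobp. Squares are male and circles female mice, and bars are group means; Fcer1g and Tyrobp lie above WT and Fcer1a and Ms4a2 below WT on all 4 knockout arrays.

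Other genes of these pathways were taken from lists and each counted by its strongest tested probe set. Among relatives of the Fc receptors, 5 of 11 were tested. Ms4a2 was the 1 that passed in IRF4/8DKO against WT (0.299% of all probe sets) and in both together (0.601%), and 0 passed in IRF8KO against WT, where Ms4a2 had a limma adjusted p of 0.101. Of 14 genes of Fc receptor signalling and related adaptors 12 were tested in both knockouts against WT, and 0 passed (0.601% of all probe sets). Of the 12, 9 were higher, with a median log2 difference of 0.51 over the 12, beside 46.2% higher and a median of -0.05 over all probe sets tested. The list includes Tyrobp and Hcst, the genes of adaptors mainly of other receptors. Tyrobp, which codes for the adaptor DAP12, a relative of the gamma chain, read 4597 and 4386 in WT and 7210 to 9929 in the knockouts (0.85, limma adjusted p = 0.0741). Hcst, the gene of the adaptor DAP10, read 60.2 and 41.7 in WT and 61.9 to 429.1 in the knockouts (1.47, limma adjusted p = 0.518).

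Around Kit, 12 of 13 genes of its ligand and signalling were tested and 0 passed. In IRF8KO 5 of 12 were higher (46.1% of all probe sets tested), with a median of -0.08. In IRF4/8DKO 9 of 12 were higher (46.9% of all), with a median of 0.29. For both together 9 of 12 were higher (46.2% of all), with a median of 0.12. The adaptor gene Shc1 differed by 0.43 and the transcription factor gene Mitf by 0.92 (limma adjusted p = 0.666 and 0.533). The stem cell factor gene Kitl did not pass the filter. Around the IL-7 receptor, 6 of 8 genes were tested and 0 passed, with a median of 0.13. Crlf2, which pairs with the IL-7 receptor alpha chain to bind the cytokine TSLP, read 887 and 489.2 in WT, 1731 and 2188 in IRF8KO, and 632.9 and 2144 in IRF4/8DKO. Its IRF8KO arrays lay above WT (1.55, limma adjusted p = 0.291), while its IRF4/8DKO arrays overlapped WT (both together 1.18, limma adjusted p = 0.391). Tslp itself read 31.1 and 36.1 in WT and 73.7 to 485.2 in the knockouts (1.83, limma adjusted p = 0.262).

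Of 14 relatives of Sca1 in the Ly6 family 8 were tested and 0 passed, with 4 of 8 higher (46.2% of all probe sets) and a median of 0.04. Plaur, the urokinase receptor gene, read 154.1 and 190.6 in WT and 367.4 to 643.5 in the knockouts (1.37, limma adjusted p = 0.175), and Cd59a, a complement inhibitor gene, lay lower (-1.02, limma adjusted p = 0.417). Of 7 genes listed beside Cd34, mostly those of sialomucins, 5 were tested and 0 passed. Prom1, which does not code for a sialomucin, differed by 0.80 and Selplg, the gene of the P-selectin ligand, by 0.66 (limma adjusted p = 0.464 and 0.613). The CD34 relative Podxl read 13.2 and 16.5 in WT, 48.8 and 43.7 in IRF8KO, and 8.74 and 15.7 in IRF4/8DKO, and passed the filter through the IRF8KO arrays alone.

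On chromosome 1 the genes Fcgr2b, Fcgr4, Fcgr3 and Fcer1g lie in that order in an interval that holds 7 other protein-coding genes in the RefSeq table. Of these 7, 6 were tested, and their log2 differences in both knockouts against WT lay between -0.27 and 0.35, with a median of 0.10. None of the 6 passed (limma, 0 of 6 against 0.601%), and 0 of 6 were without overlap between the knockout and WT arrays, against 21% of all probe sets. In IRF4/8DKO against WT 3 of the 6 did not overlap (43.6% of all probe sets), with log2 differences from -0.46 to 0.70, and in IRF8KO against WT 0 of 6, from -0.17 to 0.39.

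Marker genes of other cells differed in the same comparisons, and their part in the member values was not tested. The counts past the test stand beside 0.601% of all probe sets in both knockouts against WT. The late neutrophil list (7 of 8 genes tested, 1 higher past the test in both knockouts against WT, the collagenase gene Mmp8, which read 11.7 and 10.2 in WT and 149.7 to 594.9 in the knockouts and passed the filter through the knockout arrays alone) had a summed intensity of 12215 and 30036 in WT, 25445 and 47013 in IRF8KO, and 20752 and 45394 in IRF4/8DKO. Like Fcgr3, it was highest on replicate 2 of both knockouts. Most of the sum came from S100a8 and S100a9, and the sums overlapped between genotypes. The monocyte and dendritic cell list (7 of 10 tested) summed to 2947 to 3381 in WT, 7501 to 9474 in IRF8KO and 9325 to 15504 in IRF4/8DKO. In both knockouts against WT its chemokine receptor gene Ccr2, Mpeg1 and the F4/80 gene Adgre1 rose and Ly86 fell, the last tested through the WT arrays alone. Fcgr3, Fcgr4 and Fcer1g are also expressed by monocytes and neutrophils.

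In the stem cell, erythroid, megakaryocyte and mast cell lists, every gene that passed the test in both knockouts against WT (0.601% of all probe sets) fell. Of these Mecom and Gata1 passed the filter through the WT arrays alone, and Pf4 and Cpa3 through the WT and IRF8KO arrays alone, so they were tested through the groups where they were high. Stem and multipotent progenitor genes (6 of 8 tested, 1 past the test in both knockouts against WT, Mecom) summed to 2708 to 3805 in WT, 1472 to 2064 in IRF8KO and 1379 to 1520 in IRF4/8DKO. The largest part of these sums came from Cd48 (1564 to 1857, 1064 to 1733 and 1000 to 1094). Its IRF8KO arrays overlapped WT, and it did not pass (limma adjusted p = 0.574 in both together). Genes of eosinophils, basophils and mast cells (8 of 8 tested, 3 past the test: Cpa3, Ms4a2 and Prg2) summed to 7284 to 11314, 1474 to 3988 and 479.6 to 567.1 in the same order. Megakaryocyte genes (4 of 6 tested, 1 past the test, Pf4) summed to 841.4 to 3311, 481.7 to 998.8 and 93.0 to 126.4. Erythroid genes (5 of 8 tested, 1 past the test, Gata1) summed to 4260 to 5006, 3592 to 3894 and 4374 to 6045, most of it from the transferrin receptor gene Tfrc. Of B cell genes, in contrast, 5 of 8 were tested and 1 rose, Vpreb1, with sums of 4813 to 4969, 6350 to 6919 and 5832 to 7742. Most of these sums came from the CD45 gene Ptprc (4178 to 4346, 4622 to 5633 and 4075 to 6665), which did not pass. Of T and NK cell genes 3 of 9 were tested and 0 passed, with sums of 827.9 to 1140, 1331 to 1842 and 1292 to 2100. Kit, which mast cells and stem cells also express, overlapped between all genotypes by its stronger probe set.

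**Figure D5:**
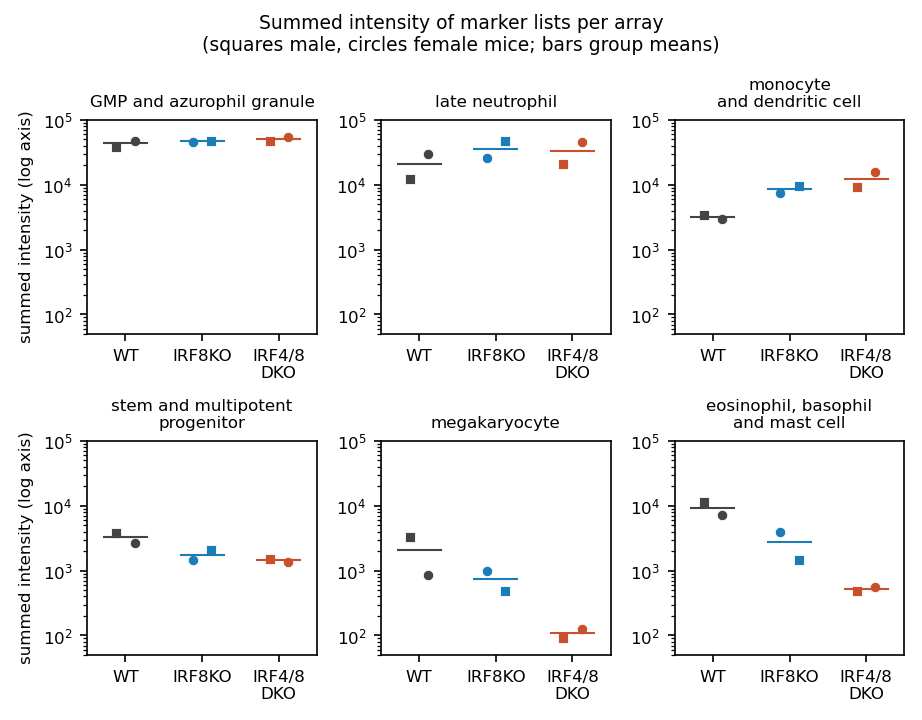
Summed intensity (log axis, the same in every panel) of 6 marker lists per array. Cd48 is the largest part of the stem cell sums. Squares are male and circles female mice, and bars are group means; the GMP sums stay between 38883 and 54600, the late neutrophil sums overlap, the monocyte sums are higher and the stem cell and the eosinophil, basophil and mast cell sums lower on all 4 knockout arrays than on both WT arrays.

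The genes whose pattern over the 6 arrays was most like that of each member were found by the root mean square difference of log2 values, each centred on its own mean. Nearest to Cd34 were 2010204K13Rik (0.117), Prkcq (0.136) and Csgalnact1 (0.149), against 0.737 for a flat line. Nearest to Fcgr3 were Hsd11b1 (0.127), Mgst2 (0.16) and Ubtd1 (0.18), against 0.969. Hsd11b1, the gene of a glucocorticoid-activating enzyme, read 434.1 and 633.5 in WT, 1297 and 2713 in IRF8KO, and 1185 and 2431 in IRF4/8DKO, and shared the higher replicate 2 of both knockouts. Nearest to Fcer1g were Natd1 (0.141), Ovol1 (0.149) and Ociad1 (0.149), against 0.672. Fcgr4 was nearest to Ubl3 (0.127), Rasgef1a (0.127) and Fgd4 (0.129), against 0.6. For the strongest Fcgr2b probe set these were Tmem248 (0.0695), Cst7 (0.0793) and the cathepsin B gene Ctsb (0.0833), against 0.432. The low-signal patterns of Il7r (Entpd6, Omd and Kcnh2, 0.204 to 0.212) and Fcgr1 (Cnnm2, Ogfod2 and Ttc32, 0.169 to 0.207) rest on values near the pseudocount. Prkcq and Csgalnact1 passed the filter through the WT arrays alone and Ubtd1 through the knockout arrays alone. Rasgef1a passed through the IRF8KO arrays alone, so the patterns of these genes were partly set by the filter. With 6 arrays and 13266 genes to choose from, near matches arise easily, and no test is attached.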

How the data were processed

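GMP RNA from 6 samples (WT, IRF8KO and IRF4/8DKO, 2 each) was hybridised to Affymetrix Mouse Genome 430 2.0 arrays after labelling from 10 ng of total RNA, per the labels' protocols. The deposited values are intensity values that the authors normalized and computed with the perfect-match minus mismatch model of dChip 1.3, as given in the design text and per the labels. Which normalization, filters and treatment of low values were used is not stated here. A difference model subtracts cross-hybridisation signal, which makes low values uncertain.

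From these, log2(value + 10.5) was taken (10.5 is the 25th percentile of all values), and probe sets above the 40th percentile of their array on at least 2 arrays were kept (29783 of 45037). Of all probe sets 34945 had 1 gene symbol, 932 several and 9160 none in the platform table used, with symbols updated through RefSeq gene identifiers (GRCm38.p6). The 3 genotypes were fitted with limma 3.58.1 in R 4.3.3 (variance trend, no covariate, 3 residual and 5.84 prior degrees of freedom). Arrays of 1 genotype are the replicates. Members, lists, tests and the rule for named genes were chosen with earlier results of these data known. That rule named all member probe sets, list genes past the threshold or else the 2 with the lowest adjusted p, and the 3 nearest patterns per member spanning over 1 log2 unit. Marker genes named past the test, Podxl, Fcer1a, Kitl and the genes of the chromosome 1 interval were singled out with their values known. On simulated data the fit was tested with 200 changed probe sets among 29783. In IRF8KO against WT it recovered 0% of changes of 1, 14% of 2, 78% of 3 and 90% of 4 log2 units. In both knockouts against WT it recovered 0%, 32%, 88% and 98%. Alternatives were other pseudocounts, filters and scalings, sex, age and the replicate number as covariates, and leaving out each array.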

Additional observations from a re-analysis of the deposited data

Results flagged for a closer look

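In several members, each taken by its strongest probe set, the arrays of male and female mice lay on opposite sides of a comparison, as log2 differences of 1 array against 1, and none of these differences between the sexes was tested. In WT and IRF8KO the sexes also differed in age, and each sex and genotype is a single sample. In IRF4/8DKO against IRF8KO, Fcgr3 differed by -1.32 between male and 1.16 between female arrays, Fcer1g by -0.59 and 0.72, Fcgr2b by -0.28 and 1.03, and Cd34 by -0.18 and 0.20. In IRF8KO against WT, Fcgr2b differed by 1.01 between male and -0.31 between female arrays. In IRF4/8DKO against WT, the low Fcgr1 signal differed by -1.54 between male and 0.76 between female arrays. Cd34, Fcgr3, Fcgr4 and Fcer1g lay on the same side of WT in both sexes in each knockout genotype. This had to be so, since all their knockout arrays lay beyond both WT arrays, and it is no separate result.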

How the results depend on the processing

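Cd34 stayed below WT and Fcgr3, Fcer1g and Fcgr4 above it in both knockouts together under all 15 alternatives. Their log2 differences were -1.66 to -1.32, 1.43 to 2.06, 0.99 to 1.51 and 0.80 to 1.37. At most settings the sign could not turn, so its constancy is no support. Leaving out 1 array cannot turn genes whose knockout and WT arrays do not overlap. The filters leave the values as they are, and the sex and replicate blocks are balanced over the genotypes. Over the 9 alternatives that keep all arrays the limma adjusted p ran from 0.0698 to 0.171, 0.0177 to 0.248, 0.0734 to 0.256 and 0.223 to 0.381. With the replicate number as a block 1 member passed, Fcgr3, in IRF8KO (limma adjusted p = 0.0429), in IRF4/8DKO (0.0441) and in both against WT (0.0177). The numbers do not pair the mice, whose sexes differ at the same number, and the deviations of same-numbered arrays correlated at 0.041, 0.187 and 0.211, so this is no support. The block moved the count of all probe sets called from 9 to 209 in IRF8KO, from 89 to 216 in IRF4/8DKO and from 179 to 391 in both together. Leaving out an array gave 0 to 1 members past the test in IRF8KO and in both together, and 0 in the other comparisons. With both together 0 probe sets of any gene passed without WT replicate 1 or without WT replicate 2, and 1020 without IRF8KO replicate 1. Over all 15 alternatives the count of all probe sets called ran from 0 to 1090 in IRF8KO, 0 to 484 in IRF4/8DKO and 0 to 1020 in both together. Median centring split the calls in both together into 48 higher and 61 lower, against 56 and 123, and moved the median of all probe sets in both together from -0.05 to 0.13.

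Near 0 the sign depended on the setting, with no call in any of these. Quantile normalization turned Kit 1452514_a_at to -0.044 in IRF8KO and -0.0043 in both together. Median centring turned Fcgr3 to 0.00012 between the knockouts and Fcgr2b 1455332_x_at to 0.11 in both together. Age as a covariate turned Fcgr3 to 0.013 between the knockouts and Il7r to -0.00065 in both together. Leaving out an array changed the sign within these ranges. In IRF8KO they were -0.041 to 0.37 (Kit 1415900_a_at), -0.074 to 0.29 (Kit 1452514_a_at), -0.076 to 1.07 (Il7r), -1.14 to 0.099 (Fcgr2b 1435476_a_at), -0.023 to 0.72 (1435477_s_at) and -0.46 to 0.50 (1451941_a_at). In IRF4/8DKO they were -0.996 to 0.15 (Il7r) and -1.08 to 0.31 (Fcgr1 1436625_at). Between the knockouts they were -0.080 to 0.27 (Kit 1452514_a_at), -0.28 to 0.31 (Cd34), -0.72 to 0.55 (Fcgr3) and -0.45 to 0.58 (Fcer1g). In both together they were -0.026 to 0.34 (Kit 1452514_a_at), -0.54 to 0.61 (Il7r), -0.38 to 0.72 (Fcgr2b 1435476_a_at) and -0.46 to 0.32 (Fcgr2b 1455332_x_at). The cause of these turns was not tested. A single array per arm is assumed to vary like the others. Signals near 10.5, as in Il7r and Fcgr1, limit what can be said of these genes.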
